A study of Homo sapiens with 4 samples.

Results

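Secreted signals and an enzyme of acute inflammation were followed in an oesophageal cancer cell line given a hydroxylase inhibitor. The 10 genes are the neutrophil-attracting chemokine genes CXCL1, CXCL2, CXCL3, CXCL5 and CXCL8, the chemokine gene CCL20, the interleukin genes IL1A, IL1B and IL6, and PTGS2, which encodes the inducible prostaglandin synthase cyclooxygenase-2. All probe sets annotated to exactly 1 of these 10 genes were taken, which gave 18 of the 41091 probe sets with 1 gene and 10 of the 19751 genes measured. The cells were KYSE170, a human line from an oesophageal squamous cell carcinoma, grown in RPMI medium with fetal bovine serum. The 2 untreated arrays, untreated 1 and untreated 2, were set against 2 arrays of cells exposed for 12 h to 50 µg/ml of EDHB (ethyl-3,4-dihydroxybenzoate), named EDHB 1 and EDHB 2. EDHB inhibits the prolyl hydroxylases that mark hypoxia-inducible factors for degradation. One line stands for the tumour type here, and the labels describe the control only as untreated. Separate cultures behind the replicates are not stated, so each p-value reflects how these 4 arrays varied, which may be technical.

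The CXCL chemokines followed here attract neutrophils through the receptors CXCR1 and CXCR2, and CCL20 attracts cells that carry CCR6. IL-1 alpha and IL-1 beta act through a shared receptor whose signal reaches the transcription factors NF-kappaB and AP-1, which in turn drive transcription of the chemokines, of IL6 and of PTGS2. Many of these mRNAs also carry AU-rich elements and are short-lived, and squamous carcinoma cells are known to make several of them without added stimulus.

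The promoters of the 5 CXCL genes are printed because the genes lie in 1 gene cluster on chromosome 4 and share a short run of letters. RefSeq windows (GRCh38.p14) ran from 250 bases before to 50 after each start and were found for 10 of 10 genes. The longest run of letters present in the CXCL1, CXCL2, CXCL3, CXCL5 and CXCL8 windows was GGAATTTCC, with 9 bases, and it is in capitals below, as is the AP-1 motif TGANTCA of CXCL8. Each stretch is the sense strand, 5′ to 3′, from 150 bases before the start to the last base before it.
CXCL1, chr4:73869243-73869392, plus strand: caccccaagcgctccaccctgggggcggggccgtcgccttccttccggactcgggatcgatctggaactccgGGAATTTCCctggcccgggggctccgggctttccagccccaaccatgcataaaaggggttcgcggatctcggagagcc
CXCL2, chr4:74099196-74099345, minus strand: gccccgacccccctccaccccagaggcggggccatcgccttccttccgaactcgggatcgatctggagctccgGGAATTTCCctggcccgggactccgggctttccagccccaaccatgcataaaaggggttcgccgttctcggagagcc
CXCL3, chr4:74038690-74038839, minus strand: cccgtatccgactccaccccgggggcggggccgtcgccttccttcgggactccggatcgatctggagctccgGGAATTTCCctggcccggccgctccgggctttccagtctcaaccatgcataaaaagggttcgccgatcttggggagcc
CXCL5, chr4:73998678-73998827, minus strand: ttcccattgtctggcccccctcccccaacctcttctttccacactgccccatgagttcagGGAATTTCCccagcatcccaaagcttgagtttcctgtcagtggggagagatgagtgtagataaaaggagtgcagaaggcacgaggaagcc
CXCL8, chr4:73740419-73740568, plus strand: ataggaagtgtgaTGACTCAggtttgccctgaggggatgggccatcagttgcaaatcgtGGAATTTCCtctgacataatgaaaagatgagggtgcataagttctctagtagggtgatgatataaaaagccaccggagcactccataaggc
The shared run began 78 bases before the start in CXCL1 and CXCL3, 77 in CXCL2, 90 in CXCL5 and 91 in CXCL8. Among all 35116 windows, 0.461% held it on either strand. In CXCL1, CXCL2, CXCL3 and CXCL5 it lay inside a match to the NF-kappaB consensus, a motif found in 11.3% of windows. The CXCL8 run missed that consensus only by the letter before the run, a t where the consensus has G. CCL20 and IL6 also held a match to the consensus. CXCL1, CXCL2 and CXCL3 further shared a run of 23 bases, and CXCL1 and CXCL3 had 64.8% identical letters over the 250 bases upstream without gaps, against 26.1% for CXCL1 and CXCL8. A match is a description of letters and is not shown to be a bound site.

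For IL1A, PTGS2 and IL6 the printed stretches carry other motifs, searched on both strands. Capitals mark, in IL1A, the HIF core motif ACGTG (read as CACGT from the minus strand) and then AP-1. In PTGS2 they mark the C/EBP motif TTGCNNAA on the minus strand, and in IL6 first C/EBP and then the NF-kappaB consensus.
IL1A, chr2:112784494-112784743, minus strand: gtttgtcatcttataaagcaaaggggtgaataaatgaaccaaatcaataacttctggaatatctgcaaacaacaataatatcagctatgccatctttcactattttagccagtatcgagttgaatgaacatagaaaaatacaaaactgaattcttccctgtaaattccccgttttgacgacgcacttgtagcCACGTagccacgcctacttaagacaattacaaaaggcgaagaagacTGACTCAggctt
PTGS2, chr1:186680424-186680673, minus strand: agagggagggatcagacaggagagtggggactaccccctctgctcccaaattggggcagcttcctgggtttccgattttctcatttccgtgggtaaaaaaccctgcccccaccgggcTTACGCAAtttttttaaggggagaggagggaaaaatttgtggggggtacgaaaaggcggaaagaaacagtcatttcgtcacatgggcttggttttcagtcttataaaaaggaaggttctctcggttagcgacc
IL6, chr7:22727030-22727199, plus strand: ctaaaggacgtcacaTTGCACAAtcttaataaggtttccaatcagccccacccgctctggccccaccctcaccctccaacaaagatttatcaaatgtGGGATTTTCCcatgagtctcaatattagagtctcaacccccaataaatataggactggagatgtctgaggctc
The HIF core motif was searched only as ACGTG, so windows holding only GCGTG, which hypoxia-inducible factors also bind, were not counted. ACGTG stood in 21.4% of all windows. Among the 10 genes it stood in IL1A, 58 bases before the start, and in PTGS2, 34 bases after it. AP-1 stood in 7.71% of windows and in CXCL8 and IL1A. C/EBP stood in 10.5% of windows and in CXCL2, IL1B, IL6 and PTGS2. The letters TATAAA stood in 11.5% of windows and in CXCL8, CCL20, IL1A and PTGS2. IL1A had 2 windows in the table, and the first was used.

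**Figure D1:**
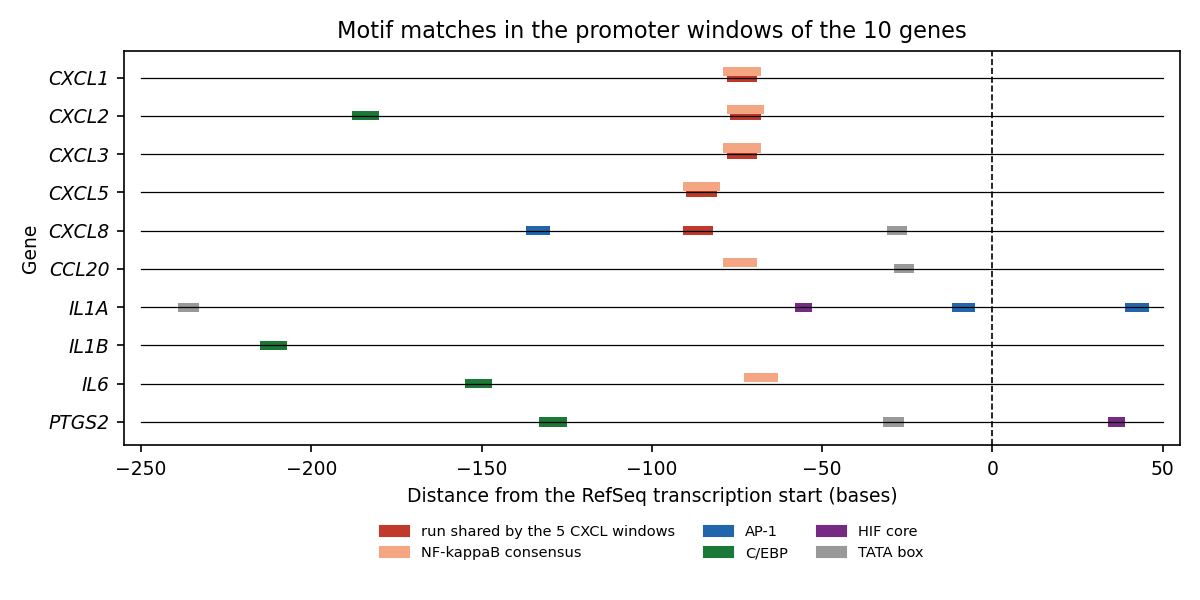
Matches to 6 motifs in the promoter windows of the 10 genes, with distance from the RefSeq transcription start in bases on the x axis and 1 gene per line; coloured blocks are matches on either strand. The shared run of the 5 CXCL genes lies between 77 and 91 bases before the start, inside the NF-kappaB consensus in 4 of them.

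In the deposited table the rows of the replicate 2 columns were out of step with those of replicate 1, so probe sets had to be matched before any replicate 2 value could be read. The order was restored from the untreated levels for 54459 of 54613 probe sets (99.7%), and the log2 levels of EDHB 1 and EDHB 2 then correlated across probe sets at 0.997, against 0.418 as deposited. Fewer could be placed among those with a 2-fold difference in the replicate 2 pair, 92 of 148 higher and 21 of 45 lower, so shares of genes changed 2-fold in that pair are too low. All 18 probe sets of the 10 genes were restored. With their own level left out of the matching, 17 were placed on the same row with the same certainty. The exception was CXCL1, for which the posterior was 0.977 with its own level and 0.657 without it. The values of untreated 1 and EDHB 1 need no restoring. Of the cell type markers, 8 of 9 measured squamous epithelial ones stood above the median probe set (log2 level 4.54), taken here as the mark below which a level is not shown to be above background, while 1 of 9 leukocyte markers and 3 of 9 fibroblast and endothelial markers did. The squamous marker below it was KRT14, a keratin of basal squamous cells, and 12 squamous markers had been listed. The summed intensity of the leukocyte markers lay between 107 and 125 on the 4 arrays and that of the squamous markers between 13457 and 14868. The highest levels in the squamous sum were those of SFN, EPCAM and CDH1 (log2 12.8, 11.9 and 10.9 in untreated 1). EPCAM and CDH1 are general epithelial markers, so the sum does not by itself show squamous identity.

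None of the 10 genes passed limma's test at a Benjamini-Hochberg adjusted p under 0.05 (0 of 10 called, 3 at an unadjusted p under 0.05). Over all genes the same test called 2, or 0.0101%, and 16.8% had an unadjusted p under 0.05. With an intensity trend in limma's prior variance, CXCL1 was called (1 of 10), beside 1.9% of all genes. In that fit 3614 of 19751 genes had an unadjusted p under 0.05, and 3 of the 10 did. CXCL1, IL1A and IL1B had both EDHB arrays above both untreated arrays (3 of 10 genes, against 23.2% of all genes), and IL6 had both below (1 of 10, against 22.5%). The other 6 genes overlapped between the groups. Of the 8 genes above the median probe set, 3 had both EDHB arrays higher and 1 both lower, against 28.6% and 25.8% of all genes above it. An array of whole cultures cannot tell fewer cells making an mRNA from less of it per cell.

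The replicate pairs, formed by array number, differed. The labels do not say that equal numbers pair the arrays, so the signs and differences below depend on this matching, and the other matching was not examined. Within the replicate 1 pair (EDHB 1 against untreated 1), 9 of 10 genes were higher after EDHB, against 47.5% of all genes, and CXCL1, CXCL8, IL1A and PTGS2 were higher by at least 2-fold, against 0.228% of all genes. Within the replicate 2 pair, 3 of 10 were higher, against 50.8% of all genes, and CXCL1 alone of the 10 was higher by at least 2-fold, against 0.248%. In neither pair was 1 of the 10 lower by at least 2-fold (0 of 10), against 0.0608% of all genes in the replicate 1 pair and 0.0709% in the replicate 2 pair. The pairs had opposite signs in 6 of the 10 genes, against 35.1% of all genes, and in these 6 the direction was higher in the replicate 1 pair and lower in the replicate 2 pair. That order of signs held in 16.03% of all genes. CXCL5 and CCL20, counted here, were not shown to be above background. Of the 8 genes above the median probe set, 7 were higher in the replicate 1 pair and 3 in the replicate 2 pair, against 48.8% and 53.4% of all genes above it. Of the same 8, 4 were higher in the first pair and lower in the second, against 12.8%. The median log2 change of the 10 genes was 0.62 in the replicate 1 pair and -0.23 in the replicate 2 pair, and that of the 8 was 0.87 and -0.44.

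**Figure D2:**
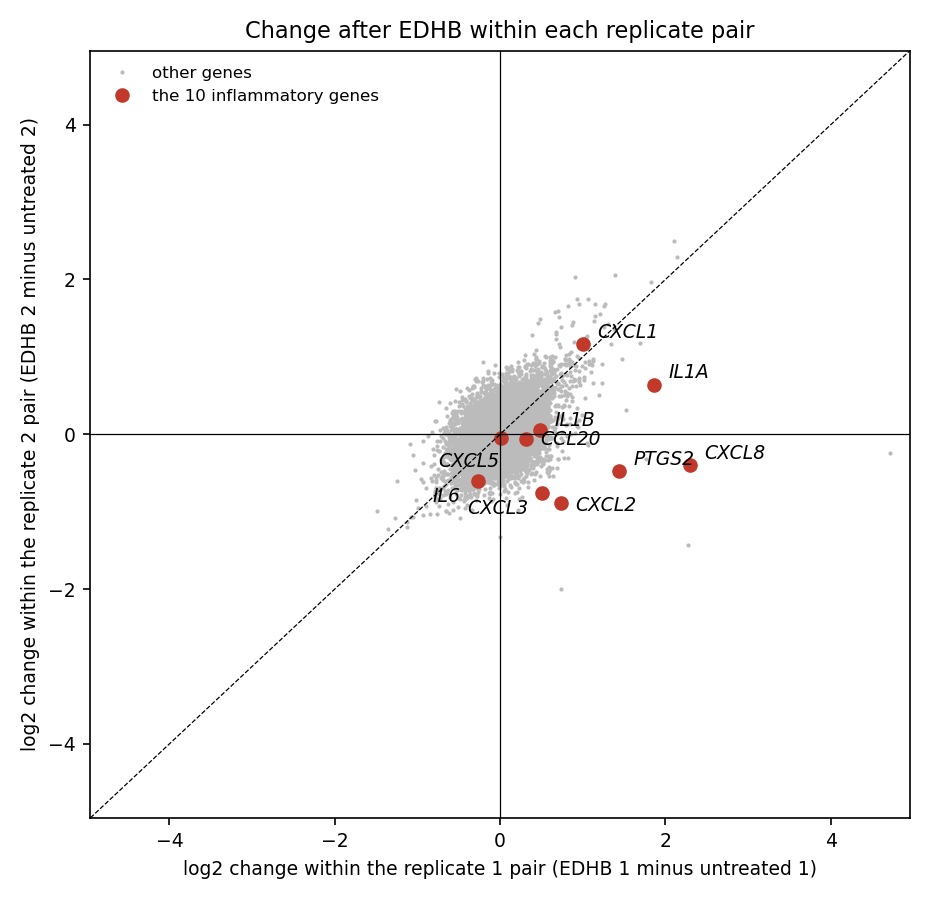
Log2 change after EDHB within the replicate 1 pair (x axis) against that within the replicate 2 pair (y axis) for 19751 genes, with the 10 inflammatory genes in red; the dashed line marks equal changes. CXCL1 lies near the line, while CXCL8 (2.29 and -0.40), PTGS2 (1.43 and -0.48), CXCL2 (0.73 and -0.89) and CXCL3 (0.51 and -0.75) lie far below it.

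Ranked by the absolute difference between the pairs' changes, CXCL8 was at rank 4 of 19751 genes with 2.69 log2 units, PTGS2 was at rank 6 with 1.91, CXCL2 at rank 7 with 1.62, CXCL3 at rank 9 with 1.26 and IL1A at rank 10 with 1.22. The median over all genes was 0.14. So 5 of the 10 genes with the largest difference between pairs came from these inflammatory genes. The ranks describe these 4 arrays as paired by number and carry no test. Probe sets without a restored replicate 2 row could not enter the ranking. Of those changed at least 2-fold in the replicate 2 pair, 92 of 148 higher and 21 of 45 lower were placed. Genes with large differences may therefore be missing, and the ranks may be too high.

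Among the neutrophil chemokines above the median probe set, CXCL1 was the one with like changes in both pairs. Its intensity (probe set 204470_at) was 134 in untreated 1, 105 in untreated 2, 268 in EDHB 1 and 236 in EDHB 2. Both EDHB arrays stood above both untreated arrays, with folds of 2.00 and 2.24 within the pairs. The mean log2 change was 1.08 ± 0.14 (SE, n = 2 per group), with an adjusted p of 0.104 in limma and 0.0296 with the intensity trend. Without any 1 of the 4 arrays, the change lay between 0.91 and 1.25 and the trend fit called 0 genes. The replicate 2 value depends on the row order, since its place lay in a list of probe sets changed by at least 2-fold, the higher list with a probability of 0.977 and the lower list with 0.023. With its own level left out these were 0.657 and 0.342, and at a posterior minimum of 0.99 CXCL1 had no replicate 2 value. The 2.00-fold difference of the replicate 1 pair does not share this limit.

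CXCL8 encodes interleukin-8, the best known neutrophil attractant. Its brighter probe set (202859_x_at) read 147 in untreated 1, 322 in untreated 2, 722 in EDHB 1 and 244 in EDHB 2. EDHB 1 was the highest array and untreated 1 the lowest, with untreated 2 above EDHB 2, so that the groups overlapped. The fold was 4.90 in the replicate 1 pair and 0.758 in the replicate 2 pair. The other probe set of CXCL8 (211506_s_at) gave the same order of arrays, with 70.4, 159, 342 and 118 in the same sequence of arrays and log2 changes of 2.28 and -0.43. The untreated arrays differed from each other by 2.18-fold and the EDHB arrays by 2.96-fold, against a median over all genes of 0.11 log2 units between untreated arrays and 0.10 between EDHB arrays. The mean log2 change of 0.95 ± 0.61 (SE, n = 2 per group) was within this spread (adjusted p = 0.514 in limma).

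CXCL2 and CXCL3 encode close relatives of CXCL1 with the same receptor. CXCL2 (209774_x_at) read 46.4 in untreated 1, 76.5 in untreated 2, 77.2 in EDHB 1 and 41.3 in EDHB 2. CXCL3 (207850_at) read 32.8, 46.5, 46.7 and 27.6 on the same arrays. In both genes untreated 2 and EDHB 1 stood together as the high arrays, and EDHB 2 was the lowest. The mean changes of -0.08 ± 0.37 for CXCL2 and -0.12 ± 0.30 for CXCL3 (log2, SE, n = 2 per group) had adjusted p of 0.9498 and 0.889 in limma. The transcripts of CXCL1, CXCL2 and CXCL3 are similar in sequence, and how far each probe set also reads the others was not tested. Of the other CXCL2 probe sets, 1569203_at had changes of 0.32 and -0.19 and 230101_at of -0.07 and -0.06, both below the median probe set on all 4 arrays.

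CXCL5 and CCL20 were not shown to be above background. The brightest CXCL5 probe set (207852_at) read between 3.04 and 3.43 on the 4 arrays, and its other 2 probe sets also stood below the median probe set on all of them. CCL20 (205476_at) read 11.4 in untreated 1, 10.1 in untreated 2, 14.1 in EDHB 1 and 9.68 in EDHB 2. For both genes the groups overlapped, and the sign of their changes is not interpreted.

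The cluster on chromosome 4 was not uniform. In RefSeq order it runs from CXCL8 through CXCL6, PF4V1, CXCL1, PF4, PPBP, CXCL5 and CXCL3 to CXCL2, with pseudogenes and noncoding genes between them, and MTHFD2L follows. CXCL6, PF4V1, PF4 and PPBP all stood below the median probe set on the 4 arrays, with log2 levels of at most 3.99. MTHFD2L, which encodes a mitochondrial folate enzyme, changed by -0.04 and -0.06 log2 units within the pairs.

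The interleukin-1 genes were higher after EDHB in both pairs, by unequal amounts. IL1A (210118_s_at) read 262 in untreated 1, 340 in untreated 2, 951 in EDHB 1 and 530 in EDHB 2. The groups did not overlap, and the fold was 3.63 in the replicate 1 pair and 1.56 in the replicate 2 pair. The mean log2 change was 1.25 ± 0.30 (SE, n = 2 per group), with an adjusted p of 0.167 in limma and 0.0778 with the intensity trend. The other IL1A probe set (208200_at) stood below the median probe set on all 4 arrays, with changes of 0.45 and 0.03.

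IL1B (205067_at) read 237 in untreated 1, 250 in untreated 2, 330 in EDHB 1 and 259 in EDHB 2. EDHB 2 was barely above untreated 2, and the mean log2 change of 0.26 ± 0.14 (SE, n = 2 per group) had an adjusted p of 0.411 in limma. A second probe set of IL1B (39402_at) gave 194, 204, 281 and 215 on the same arrays, again with EDHB 1 as the highest.

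Of the genes followed here, IL6 alone was lower after EDHB in both pairs. Its probe set (205207_at) read 46.1 in untreated 1, 48.1 in untreated 2, 38.5 in EDHB 1 and 31.7 in EDHB 2. The untreated arrays lay close together and both EDHB arrays lay below them, with log2 changes of -0.26 and -0.60. The mean change was -0.43 ± 0.12 (SE, n = 2 per group) with an adjusted p of 0.191 in limma and 0.138 with the intensity trend. Leaving out any 1 array kept it below 0, between -0.57 and -0.29.

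PTGS2, like CXCL8, had untreated 1 as its lowest array and EDHB 1 as its highest. Its brighter probe set (204748_at) read 87.9 in untreated 1, 219 in untreated 2, 237 in EDHB 1 and 157 in EDHB 2. Untreated 1 was the low array, and the other 3 stood well above it. The untreated arrays differed by 2.49-fold for this gene, and by at least 2-fold for 0.111% of all genes. The mean log2 change of 0.48 ± 0.46 (SE, n = 2 per group) had an adjusted p of 0.676 in limma, and it turned to -0.18 without untreated 1. The second probe set (1554997_a_at) read 21.8, 55.6, 61.7 and 33.6, with log2 changes of 1.503 and -0.726, and stood above the median probe set on 3 of the 4 arrays.

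**Figure D3:**
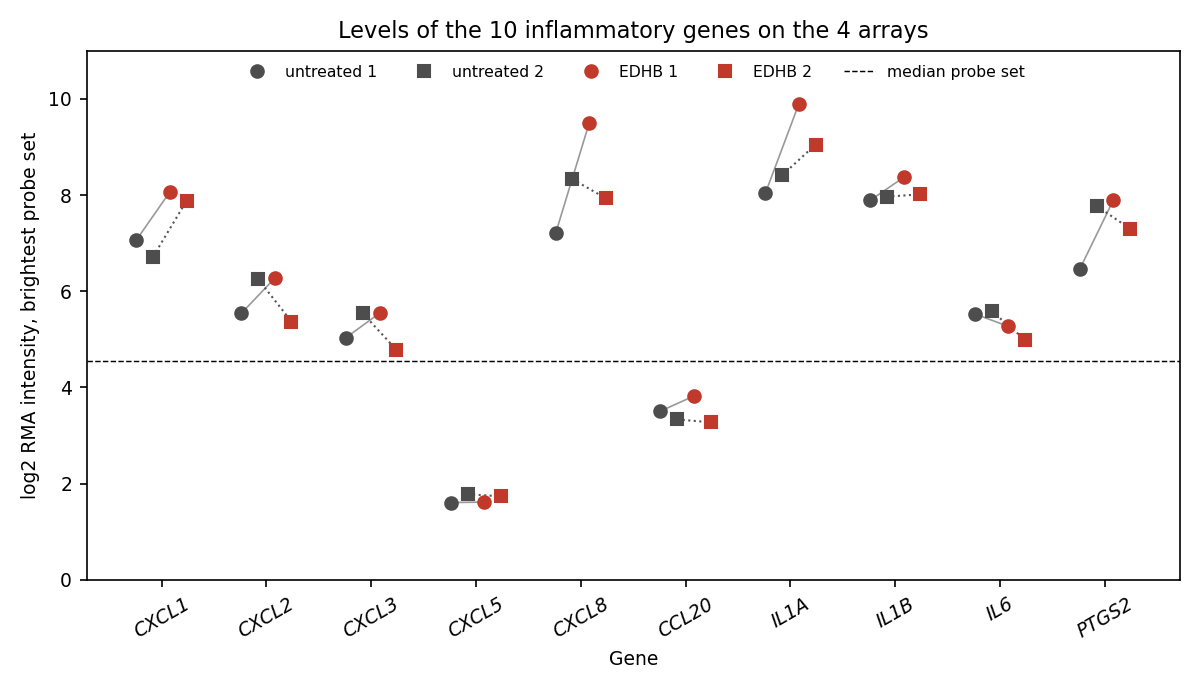
Log2 intensity of the brightest probe set of each of the 10 genes on the 4 arrays; grey marks are untreated, red marks EDHB, circles replicate 1 and squares replicate 2, lines join the arrays of a pair, and the dashed line is the median probe set (4.54). The lines slope the same way in both pairs for CXCL1, IL1A, IL1B and IL6, and up in replicate 1 but down in replicate 2 for CXCL2, CXCL3, CXCL8 and PTGS2.

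The receptors of these ligands were next. Of 15 chemokine and cytokine receptor genes measured, limma called 0, with and without the intensity trend (2 at an unadjusted p under 0.05 in each fit). CXCR2, CCR6 and IL1R1 stood below the median probe set on all 4 arrays, and so did CXCR1, with log2 levels between 4.31 and 4.54. IL1RAP, the coreceptor of IL-1, changed by 0.22 and 0.10 log2 units within the pairs, and IL6ST, the signal-transducing chain of the IL-6 family, by 0.31 and 0.09. IL6R changed by 0.15 and 0.27. Of the prostaglandin E2 receptors, PTGER4 changed by 0.00 and -0.30 and PTGER1 by -0.04 and -0.12, while PTGER2 and PTGER3 stood below the median probe set. These values are of the brightest probe set. In mean change, 5 of 6 other restored probe sets of IL6ST went the other way (from -0.32 to 0.16), as did 1 of 2 for PTGER1 and the other one for PTGER4 (0.27).

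Of 13 genes for prostaglandin synthesis, breakdown and transport, 0 were called by limma in either fit (3 at an unadjusted p under 0.05). PTGS1, the constitutive cyclooxygenase, was higher in both pairs by 0.45 and 0.39 log2 units (adjusted p = 0.0734 in limma with the intensity trend). PTGES, the prostaglandin E synthase often induced with PTGS2, changed by -0.46 and 0.29, with signs opposite to those of PTGS2. Its log2 levels were 9.49 in untreated 1 and 8.73 in untreated 2, but alike in EDHB 1 (9.03) and EDHB 2 (9.01). HPGD, which breaks down prostaglandins, changed by 0.25 and 0.42, PTGR1, a prostaglandin reductase, by 0.30 and 0.40, and PTGES3 by -0.03 and -0.07. In mean change, 1 of 3 other probe sets of PTGS1 (-0.02) and 1 of 3 of HPGD (-0.008) had the opposite sign. The HPGD probe set given stood above the median probe set only on EDHB 2 (log2 level 4.70).

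Of 23 measured genes (27 listed) for NF-kappaB subunits and signalling, limma called 0 (3 at an unadjusted p under 0.05), and with the intensity trend 1 higher and 0 lower. The gene called was TLR3, a receptor for double-stranded RNA, with changes of 0.63 and 0.83 log2 units (adjusted p = 0.0357 in limma with the intensity trend). IRAK2, a kinase of the IL-1 receptor complex, changed by 0.65 and 0.10, NFKB1 by -0.16 and -0.31, TRAF3 by -0.18 and -0.48, and the inhibitor NFKBIA by 0.20 and -0.14. Both other probe sets of IRAK2 went the other way, with mean changes of -0.23 and -0.19, and those of TLR3 were 0.05 and 0.83. The median change of the list was 0.09 in the replicate 1 pair and -0.03 in the replicate 2 pair.

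Among 24 measured NF-kappaB target and feedback genes (28 listed), limma called 0 in either fit (5 at an unadjusted p under 0.05, 6 with the trend). Both EDHB arrays stood above both untreated arrays in 10 of 24 and below in 3, against 23.2% and 22.5% of all genes. Of the 21 genes above the median probe set these were 8 and 3, against 28.6% and 25.8% of all genes above it. Their median change was 0.32 in the replicate 1 pair and 0.03 in the replicate 2 pair, and 8 of 24 (33.3%) were higher in the first and lower in the second, against 16.03% of all genes. TNFAIP3, which encodes the feedback inhibitor A20, had log2 levels of 8.05 in untreated 1, 8.70 in untreated 2, 8.87 in EDHB 1 and 8.39 in EDHB 2. Its array order was that of PTGS2, CXCL2 and CXCL3 in that untreated 2 and EDHB 1 were the high arrays. Complement C3 changed by 0.93 and 0.11, S100A8, a calcium-binding alarmin, by 0.91 and 0.02, PLAU, the urokinase gene, by 0.71 and 0.23, and TNFAIP8 by 0.44 and 0.44. The other probe set of S100A8 went the other way, with a mean change of -0.25.

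Of 17 measured genes (19 listed) for binding, decay or regulation of AU-rich mRNAs, limma called 0 in either fit (0 at an unadjusted p under 0.05, 2 with the trend). ZFP36, which encodes the decay factor tristetraprolin, changed by 0.46 and -0.01, and DUSP1, a phosphatase that acts on p38, by 0.99 and 0.25. TIA1 changed by 0.13 and 0.14, TIAL1 by -0.11 and -0.19 and HNRNPD by -0.17 and -0.20. Of the other probe sets, 3 of 6 for TIA1 and 3 of 7 for HNRNPD went the other way. The 2 other probe sets of DUSP1 had mean changes of only 0.03 and 0.04, against 0.62 for the one given. For IL-1 processing, 0 of 14 genes were called in either fit (2 at an unadjusted p under 0.05, 3 with the trend), and the inflammatory caspase CASP4 changed by 0.19 and 0.35, the calpain CAPN2 by -0.16 and -0.13 and CTSG by 0.05 and 0.36.

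Downstream of the IL-6 family, 0 of 12 measured genes (13 listed) were called by limma in either fit (4 at an unadjusted p under 0.05, against 16.8% of all genes). Both EDHB arrays stood above both untreated arrays in 6 of 12 and below in 1, against 23.2% and 22.5% of all genes. Of the 11 genes above the median probe set, 5 had both EDHB arrays higher and 1 both lower, against 28.6% and 25.8% of all genes above it. CEBPB, a transcription factor that binds the C/EBP motif, changed by 0.38 and 0.49 (adjusted p = 0.0530 in limma with the intensity trend), OSMR, the oncostatin M receptor, by 0.36 and 0.36, JAK1 by 0.25 and 0.41 and TYK2 by 0.06 and 0.33. Of 27 other measured chemokine and cytokine genes (28 listed), 0 were called in either fit (5 at an unadjusted p under 0.05, 4 with the trend). Both EDHB arrays stood above both untreated arrays in 11 of 27 and below in 1, but 16 of the 27 lay below the median probe set, and of the 11 genes above it 5 had both EDHB arrays higher and 1 both lower, against 28.6% and 25.8% of all genes above it. IL18 changed by 0.19 and 0.41, TGFA by 0.35 and 0.17, CXCL16 by 0.25 and 0.16 and CSF1 by -0.29 and -0.22. Of the other probe sets, 1 of 2 for TGFA and 1 of 3 for CSF1 went the other way.

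**Figure D4:**
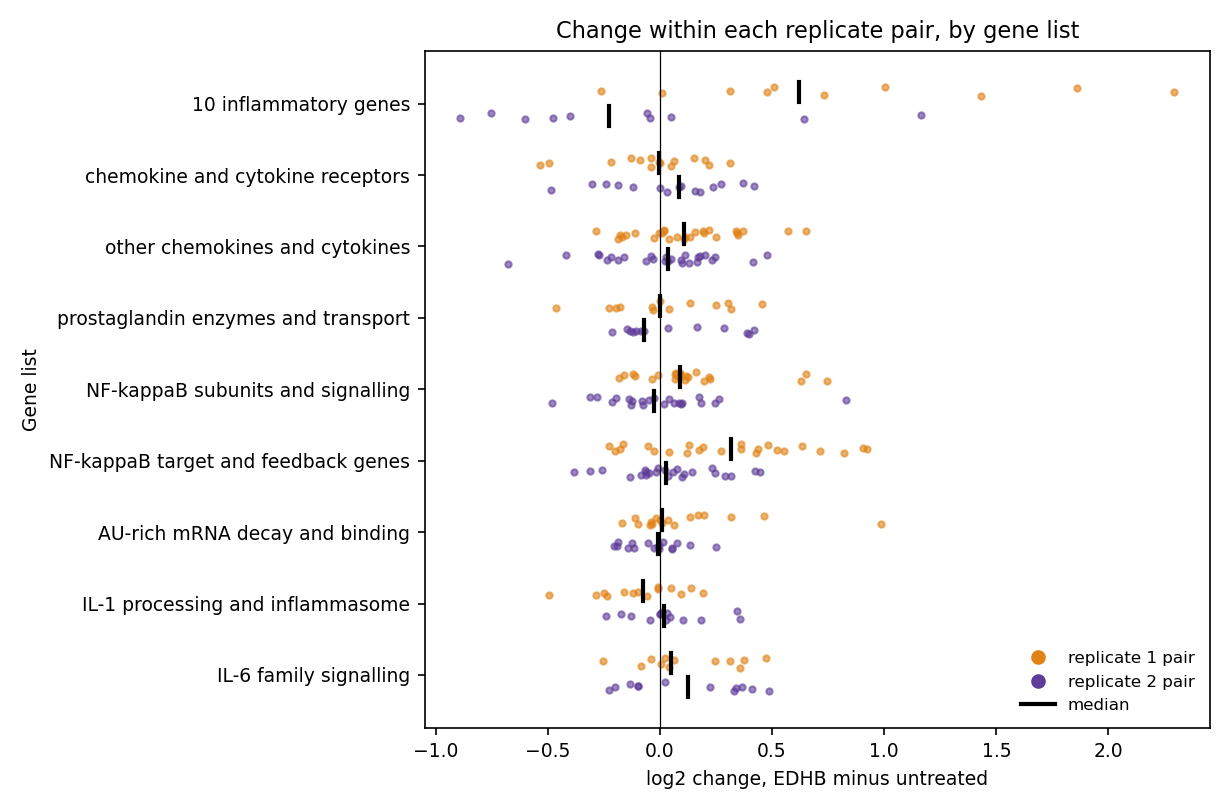
Log2 change, EDHB minus untreated, of each measured gene by list, with orange points for the replicate 1 pair, purple points for the replicate 2 pair and black bars for medians. The medians of the 10 inflammatory genes are 0.62 and -0.23, and those of the NF-kappaB target and feedback genes 0.32 and 0.03.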

How the data were processed

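Total RNA from 2 untreated and 2 EDHB-treated samples of KYSE170 was hybridised to Affymetrix 3′ arrays, per the labels' protocols. Each deposited value is an RMA intensity on a linear scale (RMA is named in the submitters' processing notes); its software is not given in the sources used here. This step equalises the arrays' distributions, so a global shift would not be seen. Intensities ran from 1.55 to 13393, with medians of 23.3 to 23.5. With 2 arrays a group, their number limits the precision.

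For replicate 2 the rows had to be put back in order. The layout inferred from the values, recorded in no label, was a sheet per replicate with 148 probe sets higher by at least 2-fold, 45 lower and the other 54419, each in ID order, with 1 empty cell per column. Rows were matched by a forward-backward alignment of log2 untreated levels (Student's t density, scale 0.15, 3 degrees of freedom) and kept at a posterior of at least 0.95. Matching by untreated levels favours small differences between the untreated arrays. On simulated data with this layout, 54473 of 54613 rows were restored, 0 of them wrong, and 131 of 195 list rows were, 0 wrong. The simulated differences between untreated arrays were drawn from the same density that the matching uses. How the matching does where real differences depart from that density was not tested.

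Of the probe sets, 41091 had 1 gene in the platform annotation, 1801 several and 11721 none. The brightest restored probe set stood for its gene. Log2 values were tested with limma 3.58.1 in R 4.3.3 (lmFit, eBayes, Benjamini-Hochberg over 19751 genes, threshold 0.05, 2 residual and 2.99 prior degrees of freedom). An exact permutation test of 2 against 2 arrays cannot go below p = 0.333. On simulated data the limma fit recovered 74% of genes changed by 1 log2 unit with 7 wrong calls, and 78% with 9 wrong with the trend. Promoters came from RefSeq with Python 3.11.15.

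The 10 genes and all lists were chosen with earlier results of these data known. Named were the 10 genes, up to 4 genes per list with the largest change among those above the median probe set whose groups did not overlap, genes called in either fit, and fixed receptors and feedback genes. Alternatives were the trend, a replicate block, scalings, a filter on dim genes, other matching settings, a pseudocount, other probe set rules and leaving out each array.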

Additional observations from a re-analysis of the deposited data

How the results depend on the processing

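The count of 2 called genes rose to 375 with the intensity trend (211 higher, 164 lower), 40 after centring arrays on their medians (30 higher, 10 lower), 43 after cyclic loess (31 higher, 12 lower), 432 without dim genes (269 higher, 163 lower), 79 with log2(intensity + 16) and 7 with the median over probe sets. In limma it was 0 with the replicate block (3208 at an unadjusted p under 0.05), at a posterior minimum of 0.5 (3321) and with every probe set on its own (6102), and between 0 and 0 without any 1 array (1692 to 2774), where the lone array of a group is assumed to vary like the others. Of the 10 genes, 1 was called with the trend and 1 without dim genes, CXCL1 both times, and its adjusted p ranged from 0.0296 to 0.278 over the alternatives with all 4 arrays, the latter with the replicate block. The replicate numbers are not shown to pair the arrays (deviations of same-numbered arrays correlated at 0.215 across genes, with only 2 pairs). CXCL1 had no replicate 2 value, and so no result, at a posterior minimum of 0.99, with a density scale of 0.3 and with the 10 genes' levels left out of the matching, a setting chosen after seeing the data. CXCL5 and CCL20 are not shown to be above background, so their signs are not interpreted. Leaving out 1 array moved CXCL2 between -0.53 and 0.37, CXCL3 between -0.50 and 0.26, CXCL5 between -0.10 and 0.069, CCL20 between -0.15 and 0.40 and PTGS2 between -0.18 and 1.14 (log2). CXCL8 kept its sign and moved between 0.16 without EDHB 1 and 1.73 without EDHB 2. IL1A lay between 0.83 and 1.67 and IL1B between 0.09 and 0.44. Cyclic loess turned CXCL5 to 0.010.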

Other observations

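The other genes among the 10 with the largest difference between the pairs were EGR1, CCN2, DLGAP1-AS6, FOS and DAW1, named after their values were seen. EGR1, an immediate early transcription factor, changed by 4.72 log2 units in the replicate 1 pair and by -0.25 in the replicate 2 pair. FOS, a subunit of AP-1, changed by 1.77 and -0.31, with levels below the median probe set on 3 of the 4 arrays. CCN2, a matricellular growth factor gene, changed by 2.27 and -1.43. DLGAP1-AS6, a noncoding transcript, changed by 0.73 and -2.00, and DAW1 stood below the median probe set on all 4 arrays. CCN2, DLGAP1-AS6 and DAW1 were lower by more than 2-fold in the replicate 2 pair. Only 21 of 45 such probe sets could be placed, so these replicate 2 values depend on the restored row order. NFKBIZ, an NF-kappaB cofactor gene outside the rule for named genes, changed by 0.75 and -0.21.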
